A study of Homo sapiens with 12 samples.

Results

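The cultured parental cells, the samples grown attached in serum, were set against the average of the other groups of one experiment on NCI-H1299, a human cell line from a non-small cell lung cancer. The 12 samples formed 4 groups of 3, so 3 parental culture samples stood against 9 others. Parental culture was NCI-H1299 in medium with serum. Spheroid culture was the same line in a stem cell medium, in which monolayer cells were kept for 7 to 10 days before the floating cells were moved to flasks that hinder attachment. Parental xenografts and spheroid xenografts were tumours grown from each kind of cell. All 4 groups came from 1 cell line, and the sources used here do not say how many animals carried the tumours or whether any tumours shared an animal. The samples are called biological replicates in the labels, but separate cultures are not described, so p-values reflect how far these samples scatter, and some of that scatter may be technical.

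Cells that grow attached on plastic pull on the surface through integrins and focal adhesions, and serum supplies growth factors and lipids. In a thin attached layer every cell borders the medium. Floating clusters and tumours are thicker tissues, in which inner cells receive less oxygen. The transcription factor HIF1 then switches on genes of glucose use and oxygen sparing. ATF4, a transcription factor of another family, answers shortage of amino acids and oxidative stress by switching on amino acid transporters and enzymes.

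Each sample was hybridised to 1 Affymetrix HG-U133 Plus 2.0 array, and all levels here are deposited log2 expression values, so that a difference of 1 is a 2-fold change. The average difference of a gene is its parental culture mean minus the average of the 3 other group means, and a positive value means a higher level in parental culture. A gene was called where limma's Benjamini-Hochberg adjusted p over all 19775 genes was under 0.05. Replicates 1 and 2 of parental culture stood apart from the other arrays. The 5′ control probe set of 18S ribosomal RNA had levels of 6.96 and 10.50 on them, against 13.34 on parental culture replicate 3 and 12.21 to 13.24 on the 9 other arrays. The interquartile range of the values was 2.82 on replicate 1 and 3.44 on replicate 2, the lowest and the highest of all arrays. The median SD of a gene was 0.316 in parental culture, against 0.186 for spheroid culture, 0.199 for parental xenografts and 0.156 for spheroid xenografts. The limma fit gave each gene 1 spread shared by all 4 groups, so SEs, p-values and intervals assume equal spread. Where parental culture scatters more, they can be too small for its differences and too large for those among the other groups. The part of these array differences in the results was not tested, and counts without single parental culture arrays stand beside the lists described. VIM, the intermediate filament of mesenchymal cells, averaged 14.16 in parental culture and 14.41 to 14.68 in the other groups. The epithelial adhesion genes CDH1 and EPCAM lay below the lower quartile of every array.

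Parental culture differed from the average of the other groups in 1160 of 19775 genes (5.87%), of which 594 (3.00%) were higher and 566 (2.86%) lower. After cyclic loess scaling the split was 1090 higher and 668 lower. At 2-fold or more, 283 genes (1.43%) were higher and 193 (0.976%) lower. The balance of directions depended on single arrays: 947 genes were higher and 336 lower without parental culture replicate 1, and 495 were higher and 1415 lower without replicate 2. Without replicate 3 the counts were 306 higher and 203 lower, and with replicate 3 as the only parental culture array they were 238 and 269. The 3 parental culture values lay outside all 9 others in 893 genes (4.52%), above them in 503 (2.54%) and below them in 390 (1.97%).

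A gene can pass the average through 1 group alone, so each gene was also asked to differ from every other group in the same direction. This held for 117 genes (0.592%), 83 higher (0.420%) and 34 lower (0.172%) in parental culture, and in all 117 the 3 parental culture values lay outside the 9 others. Without parental culture replicate 1 there were 162 higher and 30 lower genes, without replicate 2 there were 68 and 118, so that the direction turned, and without replicate 3 there were 42 and 7. Leaving out 1 array of another group gave 13 (spheroid culture replicate 2) to 76 genes in all. Parental culture differed from spheroid culture in 487 genes (2.46%), with 312 higher (1.58%) and 175 lower (0.885%). It differed from parental xenografts in 687 (3.47%), with 292 higher (1.48%) and 395 lower (2.00%), and from spheroid xenografts in 1083 (5.48%), with 528 higher (2.67%) and 555 lower (2.81%). These 3 comparisons share the parental culture arrays.

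In most called genes the 3 differences had 1 sign and the smallest was over 0.5 of the largest. Fewer passed each test singly. Of the 1160, 424 differed from spheroid culture in the direction of the average, 558 from parental xenografts and 844 from spheroid xenografts. Only 117 differed from each of them. Among the 594 higher genes the median difference was 1.00 against spheroid culture, 0.89 against parental xenografts and 1.09 against spheroid xenografts. Among the 566 lower genes it was -0.68, -0.86 and -0.98 in the same order. Spheroid xenografts were the group nearest to parental culture in 74 of the higher and 72 of the lower genes. Spheroid culture was nearest in 240 and 324, and parental xenografts in 280 and 170. The smallest of a gene's 3 differences divided by the largest, taken as its evenness, had a median of 0.669 in the higher and 0.545 in the lower genes, and it was over 0.5 in 785 of the 1160. These genes were chosen on the same arrays, and their 3 differences share the parental culture mean, so the medians are a description. A moderated F test of equality of the 3 other groups called 127 of 19775 genes (0.642%), and 44 of the 1160 called genes (3.79%), 11 of the higher and 33 of the lower ones. With the replicate number as a block this test called 82 genes. A gene that missed this test was not shown to be equal in the other groups: the median 95% interval of a difference between 2 of them reached 0.44 to each side.

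The genes furthest above all other groups had differences of 2.38 to 3.40. TUBB2B, a beta-tubulin best known from neurons, read 7.64, 9.43 and 8.35 in parental culture, against 6.24, 4.97 and 4.93 for spheroid culture, 5.18, 4.82 and 5.22 for parental xenografts and 4.69, 4.69 and 4.99 for spheroid xenografts. Its average difference of 3.40 (SE 0.34, limma adjusted p = 3.79e-04) was the highest of the genes named by rule, and the groups did not overlap. PHLDB2, which anchors microtubules near focal adhesions, read 7.84, 8.92 and 8.10 in parental culture, against 5.25, 4.83 and 5.62 for spheroid culture, 4.83, 5.81 and 6.43 for parental xenografts and 4.48, 5.04 and 4.79 for spheroid xenografts. The average difference was 3.06 (SE 0.31), on the brightest of 5 probe sets, of which 3 had that sign. When probe sets that can match several transcripts (suffix _x_at or _s_at) were dropped, another stood for PHLDB2, with a difference of 0.58 that was not called (adjusted p = 0.230). GDA, the guanine deaminase, was tighter within groups, at 7.90, 7.82 and 7.30 in parental culture, against 5.29, 5.00 and 4.91 for spheroid culture, 4.47, 4.89 and 4.98 for parental xenografts and 4.76, 4.81 and 4.36 for spheroid xenografts (average difference 2.84, SE 0.17). Its other probe set, used after the same removal, gave 0.18 (adjusted p = 0.677).

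NRN1, a membrane-anchored protein that promotes neurite outgrowth, read 7.61, 8.47 and 7.48 in parental culture, against 4.36 to 5.30 on the 9 other arrays (3.04, SE 0.21). DSG2, a cadherin of desmosomes, differed by 2.97 (SE 0.36): it read 8.51 to 9.96 in parental culture, against 8.06, 6.18 and 6.46 in spheroid culture and 5.15 to 6.71 in the xenografts. The lowest parental culture value of DSG2 lay close above spheroid culture replicate 1. PTX3, a secreted pentraxin of innate immunity, ELOVL7, a fatty acid elongase, and POU4F1, a transcription factor of sensory neurons, lay below the array's lower quartile on 8 of the 12 arrays. Their parental culture values, 5.61 to 8.07, 6.76 to 8.47 and 6.20 to 7.11, stood above an otherwise dim signal, so the sizes of their differences (2.95, 2.79 and 1.98) are uncertain. The lower quartiles of the 9 other arrays were 4.65 to 4.80. TUBB2B, NRN1 and GDA read near them on most of these arrays, and PHLDB2 in spheroid xenografts, so the sizes of these differences are uncertain too. CNKSR2, a scaffold of Ras signalling, CD200, an inhibitory surface ligand, and RBP7, a retinol-binding protein, were higher by 2.84, 2.44 and 2.50, and MORC4, a nuclear ATPase, by 2.38.

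**Figure D1:**
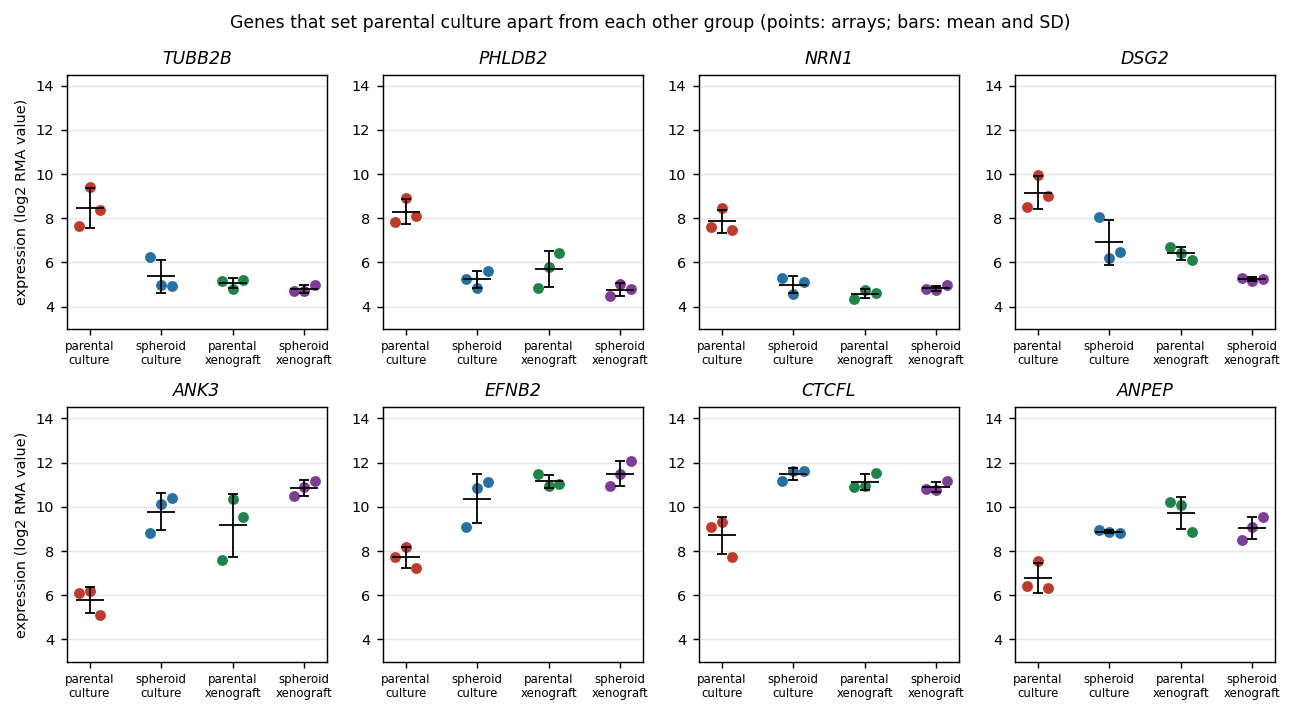
Log2 expression of 4 genes above and 4 genes below all other groups in parental culture, with 1 point per array and bars for the mean and SD of each group of 3. The 3 parental culture points of TUBB2B, PHLDB2, NRN1 and DSG2 lie above, and those of ANK3, EFNB2, CTCFL and ANPEP below, every point of the other 9 arrays.

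Among the genes named by rule as below each other group, ANK3 differed most. It encodes ankyrin G, an adaptor that ties membrane proteins to the spectrin skeleton. It read 6.08, 6.17 and 5.09 in parental culture, against 8.83, 10.11 and 10.41 for spheroid culture, 7.60, 10.37 and 9.53 for parental xenografts and 10.47, 10.90 and 11.17 for spheroid xenografts. The average difference was -4.15 (SE 0.50, limma adjusted p = 8.39e-04), and all 5 probe sets had that sign, with differences between -4.15 and -0.72. MFAP5, of the list of collagens and matrix glycoproteins, had a larger average difference but did not meet that rule. It averaged 5.44 in parental culture, against 11.17 for spheroid culture, 7.55 for parental xenografts and 11.08 for spheroid xenografts. Its probe sets differed by -4.49, -3.52 and -3.30. EFNB2, a membrane ligand of Eph receptors that marks arterial vessels, read 7.73, 8.20 and 7.24 in parental culture, against 9.08, 10.87 and 11.13 for spheroid culture, 11.50, 10.93 and 11.04 for parental xenografts and 10.93, 11.47 and 12.07 for spheroid xenografts (-3.28, SE 0.39). CTCFL, a relative of the insulator protein CTCF normally limited to germ cells, read 9.10, 9.29 and 7.73 in parental culture, against 10.75 to 11.63 on the other arrays (-2.47, SE 0.28).

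Further genes lay below every group. SPP1, the matrix protein osteopontin, read 11.52, 11.96 and 10.93 in parental culture, against 12.88, 12.91 and 13.33 for spheroid culture, 13.80, 14.19 and 13.69 for parental xenografts and 12.81, 13.42 and 13.74 for spheroid xenografts (-1.94, SE 0.23). SEMA3C, a secreted guidance cue, was lower by 1.64 (SE 0.20), and the adipokine-like C1QTNF12 by 2.00 (SE 0.24). SGK1, a kinase induced by serum and glucocorticoids, read 9.95, 9.68 and 9.63 in parental culture, against 10.78 to 12.05 on the other arrays (-1.79, SE 0.23). It was thus lowest in the group grown with serum. ANPEP, a membrane aminopeptidase, differed by -2.45, CRIP1, a LIM domain protein, by -2.17, SOX17, an endoderm and endothelial transcription factor, by -1.99, BCL6B, a transcriptional repressor, by -1.74, and RYBP, a subunit of Polycomb complexes, by -1.59. ANPEP and RYBP were not called after removal of the _x_at and _s_at probe sets (-0.20, adjusted p = 0.552, and -0.11, adjusted p = 0.760).

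**Figure D2:**
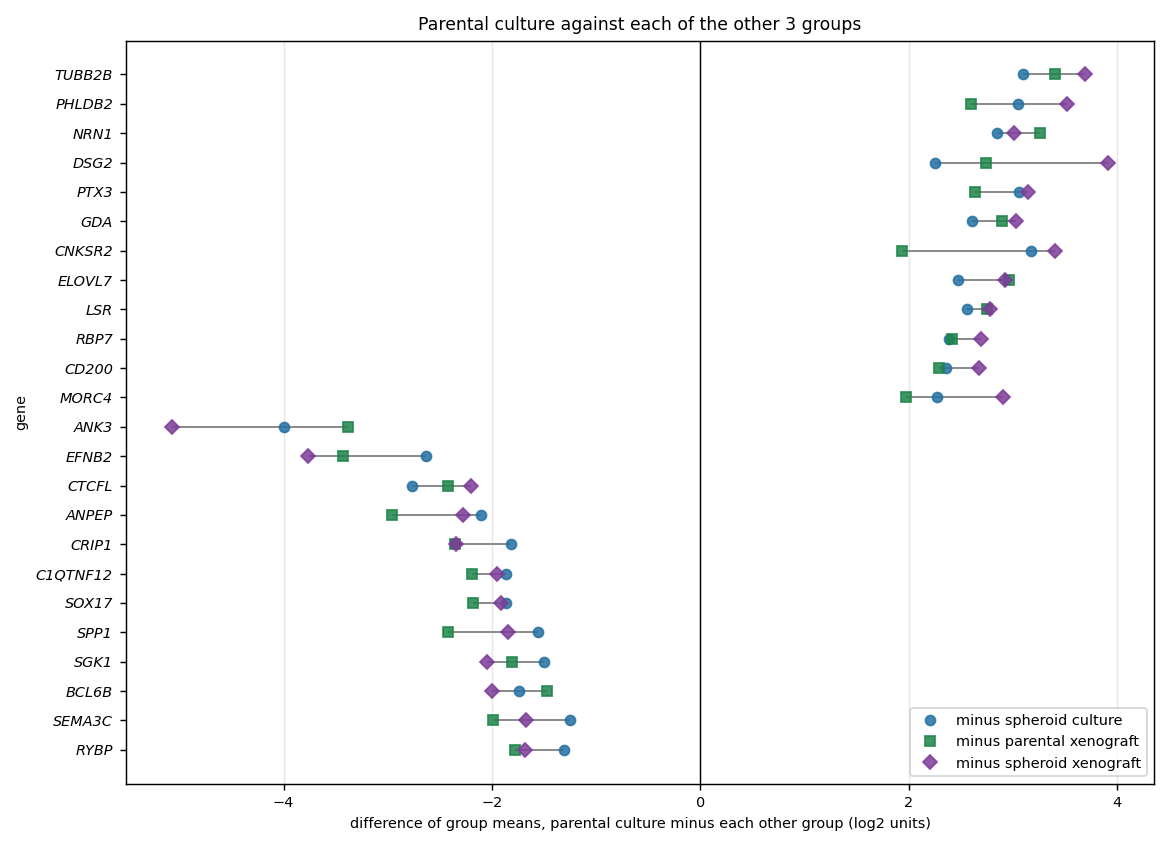
Difference of group means in log2 units, parental culture minus each of the other 3 groups, for the 12 genes furthest above and the 12 furthest below all other groups. The 3 symbols of a gene lie on the same side of 0 in all 24 genes, close together for LSR and C1QTNF12 and further apart for DSG2 and ANK3.

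The 8 most even genes by rule had almost the same distance to each other group. FKBP11, a foldase of the endoplasmic reticulum, differed by -1.26, -1.26 and -1.25 from spheroid culture, parental xenografts and spheroid xenografts. It read 8.38, 8.62 and 7.98 in parental culture, against 9.09 to 9.99 on the 9 other arrays. MRPS12, a protein of the mitochondrial ribosome, read 11.22, 11.84 and 11.89 in parental culture, against 10.07 to 10.74 on the others, with differences of 1.18, 1.21 and 1.22. RBM42, an RNA-binding protein, read 10.59 to 11.47 in parental culture against 9.11 to 9.72, with differences of 1.65, 1.56 and 1.61. LSR, a lipoprotein receptor of tricellular junctions, read 8.72, 8.52 and 7.36 against 5.29 to 5.83, with differences of 2.56, 2.76 and 2.79. POU4F1, MGLL, which encodes a lipase of monoacylglycerols, CGNL1, a junction protein, and KLHL29 had average differences of 1.98, 1.50, 1.62 and 1.71. Another MGLL probe set, used after removal of the _x_at and _s_at probe sets, gave 0.48 (adjusted p = 0.137). MRPS12, RBM42 and LSR lie on chromosome 19.

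Neighbouring genes of chromosome 19 were higher in parental culture together. Genes brighter than the median of all probe sets were put in the order of the GRCh38.p14 gene table and split into windows of 25. The median average difference passed 0.3 in 22 of 509 windows, and 11 of these formed 1 unbroken run of 275 genes on chromosome 19, from LINC00662 to PGLYRP1. Window medians in the run were 0.35 to 1.03, against -0.05 in the window before it, which ends with HAVCR1P1, and -0.03 in the window after it, which starts with IGFL2. In the run 133 genes (48.4%) were called higher and 1 lower, against 5 higher and 33 lower among the other 710 genes of the chromosome. Among all 12991 brighter genes 3.79% were called higher and 4.24% lower. The run was found from these values, so its counts are a description with no test.

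The shift of this stretch was of like size against every other group. Its median difference was 0.61 against spheroid culture, 0.67 against parental xenografts and 0.70 against spheroid xenografts, and 0.68 on average, a 1.60-fold higher level. The quartiles of its genes were 0.13 and 1.15, and 231 of 275 were above 0. The F test among the other groups called 0 of the 275 genes, with a lowest adjusted p of 0.0568. It called only 111 of all 12958 brighter genes with a known position, so the 0 does not show equal levels in the other groups. The median of the run, each gene taken relative to its mean over the 12 arrays, was 0.29, 0.66 and 0.47 on the parental culture arrays, against -0.04, -0.13 and -0.19 in spheroid culture, -0.11, -0.17 and -0.13 in parental xenografts and -0.18, -0.20 and -0.21 in spheroid xenografts. All 3 parental culture arrays thus lay above all 9 others. With replicate 3 as the only parental culture array the median difference was 0.64 and 83 genes were called higher, and the count was 147 without replicate 1, 125 without replicate 2 and 87 without replicate 3.

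Of the 61 brighter genes higher in parental culture than in each other group, 37 lie in this run. Besides LSR, RBM42 and MRPS12 they include some that were picked after their values were seen. PAF1, a subunit of a complex that travels with RNA polymerase II, averaged 9.30 in parental culture, against 7.33 for spheroid culture, 7.90 for parental xenografts and 7.78 for spheroid xenografts. AKT2, a kinase of insulin and growth factor signalling, averaged 9.76, against 8.05, 8.38 and 8.04 in the same order. The elongation factor SUPT5H, the RNA polymerase II subunit POLR2I and the DNA repair scaffold XRCC1 differed by 0.97, 1.14 and 1.16. FBL, which methylates ribosomal RNA and was 1 of 2 called genes of ribosome biogenesis, lies in the run too (0.91, not called without parental culture replicate 2 or 3, adjusted p = 0.0518 and 0.114). So do 2 genes of other lists, TGFB1, which encodes the growth factor TGF-beta 1 (0.77, called), and AXL, a receptor tyrosine kinase (0.59, adjusted p = 0.545). DNA was not measured in these samples.

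**Figure D3:**
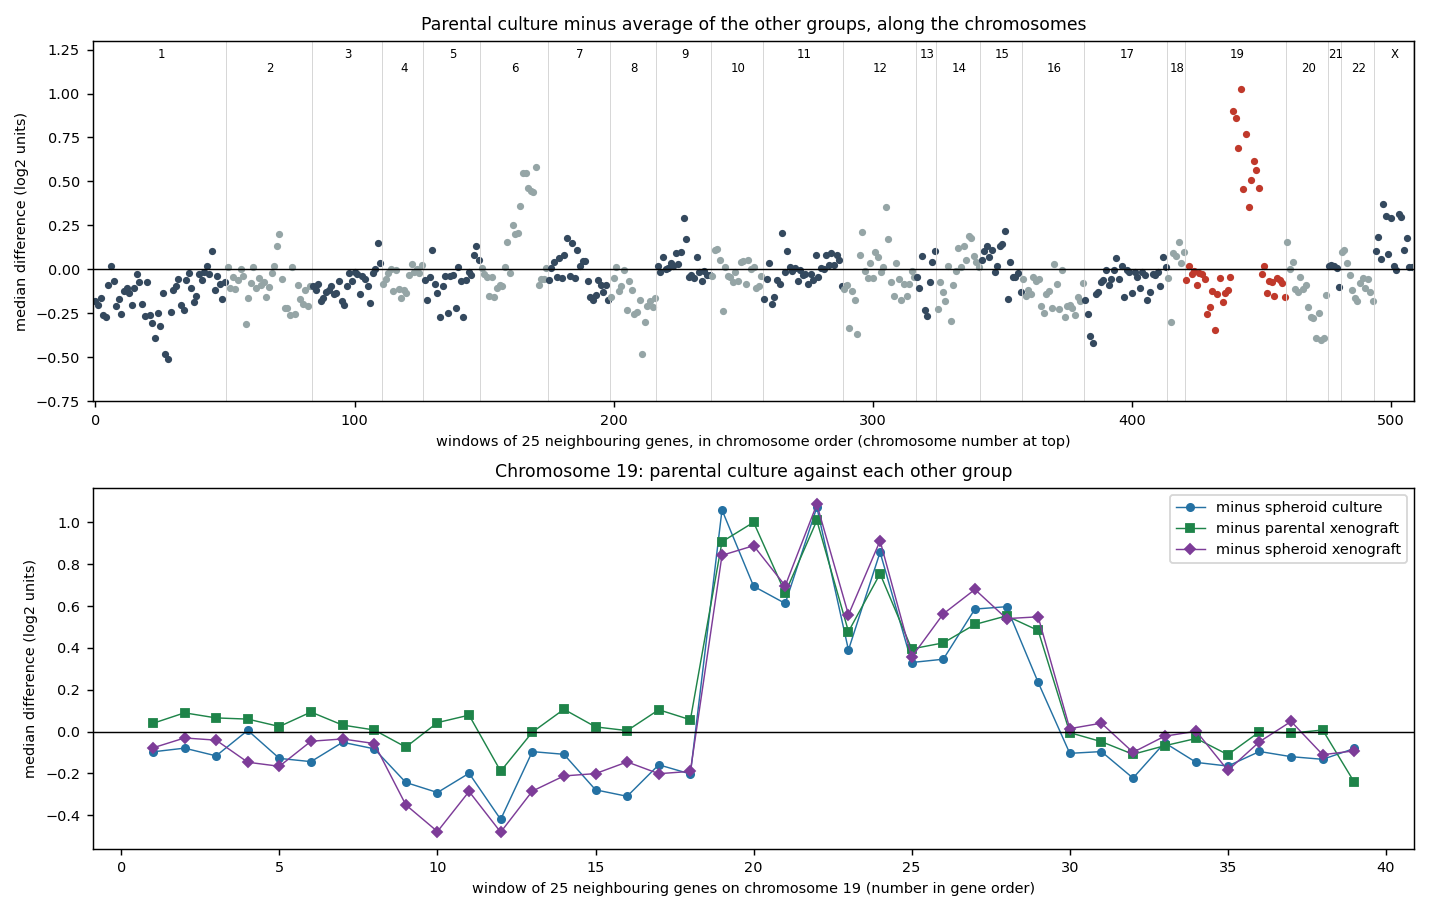
Top, median average difference (log2 units) of each window of 25 neighbouring brighter genes along chromosomes 1 to X, 1 point per window, with chromosome 19 in red. Bottom, the windows of chromosome 19 in gene order, with the median difference of parental culture against each other group: the 3 lines lie together at 0.24 to 1.09 in the 11 windows of the run and step down on both sides.

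Other chromosomes held more called genes than the background too, with a less even pattern on chromosomes 6 and X. On chromosome 6, 53 of 656 brighter genes were higher (8.08%), and the 7 windows from LRRC1 to LINC03002 had medians of 0.36 to 0.58. In these windows the medians were 0.42 to 0.76 against spheroid culture and 0.31 to 0.68 against spheroid xenografts, but 0.01 to 0.31 against parental xenografts. On the X chromosome 48 of 396 were higher (12.1%), and the window from ATP6AP2 to UXT had medians of 0.63 against spheroid culture, 0.0019 against parental xenografts and 0.62 against spheroid xenografts. On chromosome 20, 50 of 404 were lower (12.4%) and 1 higher, with its lowest window median, -0.40, from BMP7 to LSM14B. That window was of like size against every group, at -0.35 against spheroid culture, -0.33 against parental xenografts and -0.43 against spheroid xenografts. In all, the median was below -0.3 in 15 of 509 windows. The lowest, -0.51, lay on chromosome 1 from HIPK1 to LOC100996740, with 9 of 25 genes lower. A window of chromosome 8, from NACA4P to RAD21, had -0.48 on average and -0.46, -0.48 and -0.46 against the groups in the same order. The difference between the 3 values of a window was not tested.

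Where called, hypoxia response genes were lower in parental culture. Of 24 measured genes 7 fell and 0 rose, with a median difference of -0.73, against 2.86% lower and a median of -0.03 over all genes. The list was chosen with earlier results of these data known. ANKRD37, a target of HIF1, read 5.30, 5.84 and 5.67 in parental culture, against 6.47, 8.03 and 8.69 for spheroid culture, 9.17, 9.30 and 9.13 for parental xenografts and 8.16, 8.86 and 9.32 for spheroid xenografts (-2.97, SE 0.37). ADM, which encodes the vasodilator adrenomedullin, read 9.22, 9.12 and 9.56 in parental culture, against 10.56, 12.29 and 12.29 for spheroid culture, 10.50, 11.34 and 11.51 for parental xenografts and 11.42, 11.81 and 11.85 for spheroid xenografts (-2.21, SE 0.34). In both genes every parental culture value lay below the 9 others, although spheroid culture replicate 1 stood below the other spheroid cultures. P4HA1, which hydroxylates collagen prolines, read 8.61, 9.65 and 8.81 in parental culture, against 9.86 to 11.26 on the others (-1.36, SE 0.26), and 1 of its 2 probe sets had that sign.

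PDK1, a kinase that inhibits pyruvate dehydrogenase, fell by 1.49 (SE 0.31), the mitophagy receptor BNIP3L by 1.29, the histone demethylase KDM3A by 1.10 and MXI1, an antagonist of MYC, by 0.95. PDK1 was not called without parental culture replicate 1 (adjusted p = 0.0596) or replicate 3 (0.105). The list's median difference was -0.74 against spheroid culture, -1.38 against parental xenografts and -0.54 against spheroid xenografts. Its 17 other members were not called, among them VEGFA, the vessel growth factor (0.34, adjusted p = 0.845), and the glucose transporter SLC2A1 (-0.48, adjusted p = 0.0694). The number of lower genes was 4 without parental culture replicate 1, 13 without replicate 2 and 2 without replicate 3, and 0 rose in any of these fits. Against 2.86% lower over all genes, 4 of 16 measured glycolysis genes fell and 0 rose (median -0.50). They were the aldolases ALDOC (-1.14) and ALDOA (-0.94), the lactate dehydrogenase LDHA (-0.78) and the triosephosphate isomerase TPI1 (-0.53). ALDOA lost its call in 8 and LDHA in 4 of the 12 fits without 1 array (adjusted p up to 0.0615 for ALDOA and 0.0571 for LDHA). ALDOC was uneven: it averaged 7.14 in parental culture, against 8.85 for spheroid culture, 7.16 for parental xenografts and 8.84 for spheroid xenografts. Without parental culture replicate 1, the array whose GAPDH 3′ signal exceeded the 5′ signal by 0.49 (at most 0.13 elsewhere), 1 glycolysis gene was lower and 1 higher, and the part of that array in the result was not tested.

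HIF1 binds DNA at the core motif RCGTG, in which R is A or G, and only the form ACGTG was searched. The 250 bases before the start of 3 genes of the hypoxia list are shown because they differ in that form. They stand on the gene's strand, from the RefSeq promoter table (GRCh38.p14). ANKRD37 lies at chr4:185396591-185396840 (plus strand), P4HA1 at chr10:73096867-73097116 (minus strand) and ADM at chr11:10304823-10305072 (plus strand). Capitals mark ACGTG on either strand. Its 2 orientations overlap in the palindrome CACGTG of ANKRD37.
ANKRD37: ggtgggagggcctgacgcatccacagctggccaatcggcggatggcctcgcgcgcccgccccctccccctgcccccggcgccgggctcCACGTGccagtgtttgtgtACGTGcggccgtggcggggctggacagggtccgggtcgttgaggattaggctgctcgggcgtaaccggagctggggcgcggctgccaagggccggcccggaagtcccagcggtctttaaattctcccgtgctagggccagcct
P4HA1: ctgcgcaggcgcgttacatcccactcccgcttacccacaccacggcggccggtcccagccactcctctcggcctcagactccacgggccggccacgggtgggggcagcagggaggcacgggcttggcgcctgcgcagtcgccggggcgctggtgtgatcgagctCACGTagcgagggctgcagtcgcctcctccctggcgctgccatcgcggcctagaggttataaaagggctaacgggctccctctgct
ADM: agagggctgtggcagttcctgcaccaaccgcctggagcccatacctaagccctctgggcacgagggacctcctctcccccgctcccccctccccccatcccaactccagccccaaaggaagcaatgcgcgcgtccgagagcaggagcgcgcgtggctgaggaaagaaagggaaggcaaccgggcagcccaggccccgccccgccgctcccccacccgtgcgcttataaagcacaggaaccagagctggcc
ANKRD37 held 3 matches of ACGTG, P4HA1 1 and ADM 0. The form GCGTG was not counted, and it does stand in the ADM sequence. ACGTG stood in 9 of 19 promoters of the hypoxia list (47.4%), in 2 of the 6 called genes with a promoter in the table (33.3%) and in 3259 of 15384 promoters of genes on the array (21.2%). A match describes these letters only, and binding was not measured.

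Where called, targets of ATF4 were higher. Of 22 measured genes 4 rose and 0 fell, with a median difference of 0.51, against 3.00% higher over all genes. CHAC1, which degrades glutathione, read 8.81, 9.68 and 8.60 in parental culture, against 7.78, 7.45 and 7.26 for spheroid culture, 6.83, 6.47 and 6.72 for parental xenografts and 7.56, 7.51 and 7.34 for spheroid xenografts (1.82, SE 0.20, limma adjusted p = 6.36e-04). STC2, a secreted glycoprotein, read 7.80, 8.19 and 7.85 in parental culture, against 6.79, 7.31 and 7.11 for spheroid culture, 6.20, 6.36 and 6.24 for parental xenografts and 6.52, 6.75 and 6.37 for spheroid xenografts (1.32, SE 0.14). Both genes differed from each other group, and their groups did not overlap. SLC7A11, the cystine transporter, rose by 1.78 (SE 0.37), at 8.57, 10.54 and 9.96 in parental culture against 7.08 to 8.52 elsewhere, and the glutamine transporter SLC1A5 by 0.50. SLC7A11 was not called without parental culture replicate 3 (adjusted p = 0.0874). The serine synthesis enzyme PSAT1 (0.96, adjusted p = 0.0637) and the asparagine synthetase ASNS (1.13, adjusted p = 0.132) were not called, and ATF4 itself differed by -0.09 (adjusted p = 0.958). The count depended on the arrays of parental culture: 12 rose without replicate 1, 4 without replicate 2 and 2 without replicate 3.

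ATF and CHOP proteins bind composite elements with the letters TGATGNAA. The 250 bases before the start of CHAC1 at chr15:40953221-40953470 (plus strand, GRCh38.p14, RefSeq) are shown because this gene had the largest difference of the list, and capitals mark the match, which lies on the other strand.
CHAC1: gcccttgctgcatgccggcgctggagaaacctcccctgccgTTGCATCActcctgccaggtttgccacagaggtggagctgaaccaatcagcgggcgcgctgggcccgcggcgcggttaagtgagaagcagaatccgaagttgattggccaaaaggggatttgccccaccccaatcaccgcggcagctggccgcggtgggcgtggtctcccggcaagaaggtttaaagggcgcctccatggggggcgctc
The match lay 209 bases before the start. On either strand the element stood in 2 of 17 promoters of the list (11.8%) and in 355 of 15384 promoters of genes on the array (2.31%).

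Genes of the cell cycle were mostly above the other groups, but few were called. Of 24 S phase and replication genes 3 rose and 0 fell (median 0.35), against 3.00% higher over all genes: CDC6, which loads the replicative helicase, by 0.87 (SE 0.22), the flap endonuclease FEN1 by 0.70 (SE 0.14) and the clamp loader RFC3 by 0.68 (SE 0.14). FEN1 read 10.26, 10.14 and 10.07 in parental culture, against 9.11 to 9.77 elsewhere. Of 25 G2 and M phase genes 2 rose and 0 fell (median 0.43), the spindle kinase TTK by 0.99 (SE 0.20) and the centromeric histone CENPA by 0.67 (SE 0.13), and 24 of the 25 were above 0. Without parental culture replicate 3, 1 S phase gene and 0 G2 and M phase genes rose. Without replicate 1 the counts were 8 and 8. CDC6 lost its call in 7 of the 12 fits without 1 array (adjusted p up to 0.159), and RFC3, TTK and CENPA without parental culture replicate 3 (0.0989, 0.0937 and 0.0593).

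Of 26 focal adhesion genes 1 rose, PHLDB2, and 6 fell (median -0.11), against 3.00% higher and 2.86% lower over all genes. The kindlin FERMT1, an activator of integrins, fell by 2.52 (SE 0.47), at 9.34, 9.34 and 8.53 in parental culture against 10.48, 11.64 and 12.26 for spheroid culture, 9.54, 11.98 and 11.49 for parental xenografts and 12.05, 12.20 and 12.68 for spheroid xenografts. PDLIM5 fell by 1.38, CAV1, the coat protein of caveolae, by 0.91, PTK2, the focal adhesion kinase, by 0.76, LIMA1 by 0.72 and SRC by 0.57. Talin, paxillin and vinculin, which join integrins to actin, were not called (TLN1 0.02, PXN 0.19, VCL -0.36, adjusted p from 0.457 to 0.991). The excess of lower genes rested on single arrays: 2 rose and 3 fell without parental culture replicate 1, 1 rose and 7 fell without replicate 2, and 1 rose and 1 fell without replicate 3. PDLIM5 lost its call in 10 of the 12 fits without 1 array (adjusted p up to 0.189), and FERMT1 without parental culture replicate 3 (0.0637).

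Of 21 integrins and laminins 0 rose and 3 fell (median -0.41), against 3.00% higher and 2.86% lower over all genes. ITGAV, which pairs with several beta chains, fell by 1.26, ITGA4 by 0.93 and ITGB8 by 1.56, and ITGB8 was uneven. The count of lower genes was 2 without parental culture replicate 1, 3 without replicate 2 and 0 without replicate 3, and ITGB8 lost its call in 6 of the 12 fits without 1 array (adjusted p up to 0.187). Of 22 SRF and actin cytoskeleton genes 1 rose and 4 fell (median -0.21), and 0 rose without parental culture replicate 2 or 3. FHL2, a LIM protein that shuttles between adhesions and nucleus, read 10.74, 10.72 and 10.75 in parental culture, against 11.49 to 12.28 elsewhere (-1.10, SE 0.12). Of 23 targets of YAP and TEAD 2 rose and 4 fell, with a median of 0.14 that fell slightly below 0 without parental culture replicate 2 or 3. AMOTL1, which binds YAP, read 7.74, 8.80 and 7.83 in parental culture, against 5.60 to 6.49 elsewhere (2.15, SE 0.21), whereas CCN2, a matricellular growth factor, fell by 1.15 (SE 0.24) and the Hippo kinase LATS2 by 1.09 (SE 0.18). CCN2 was not called without parental culture replicate 1 (adjusted p = 0.0636).

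**Figure D4:**
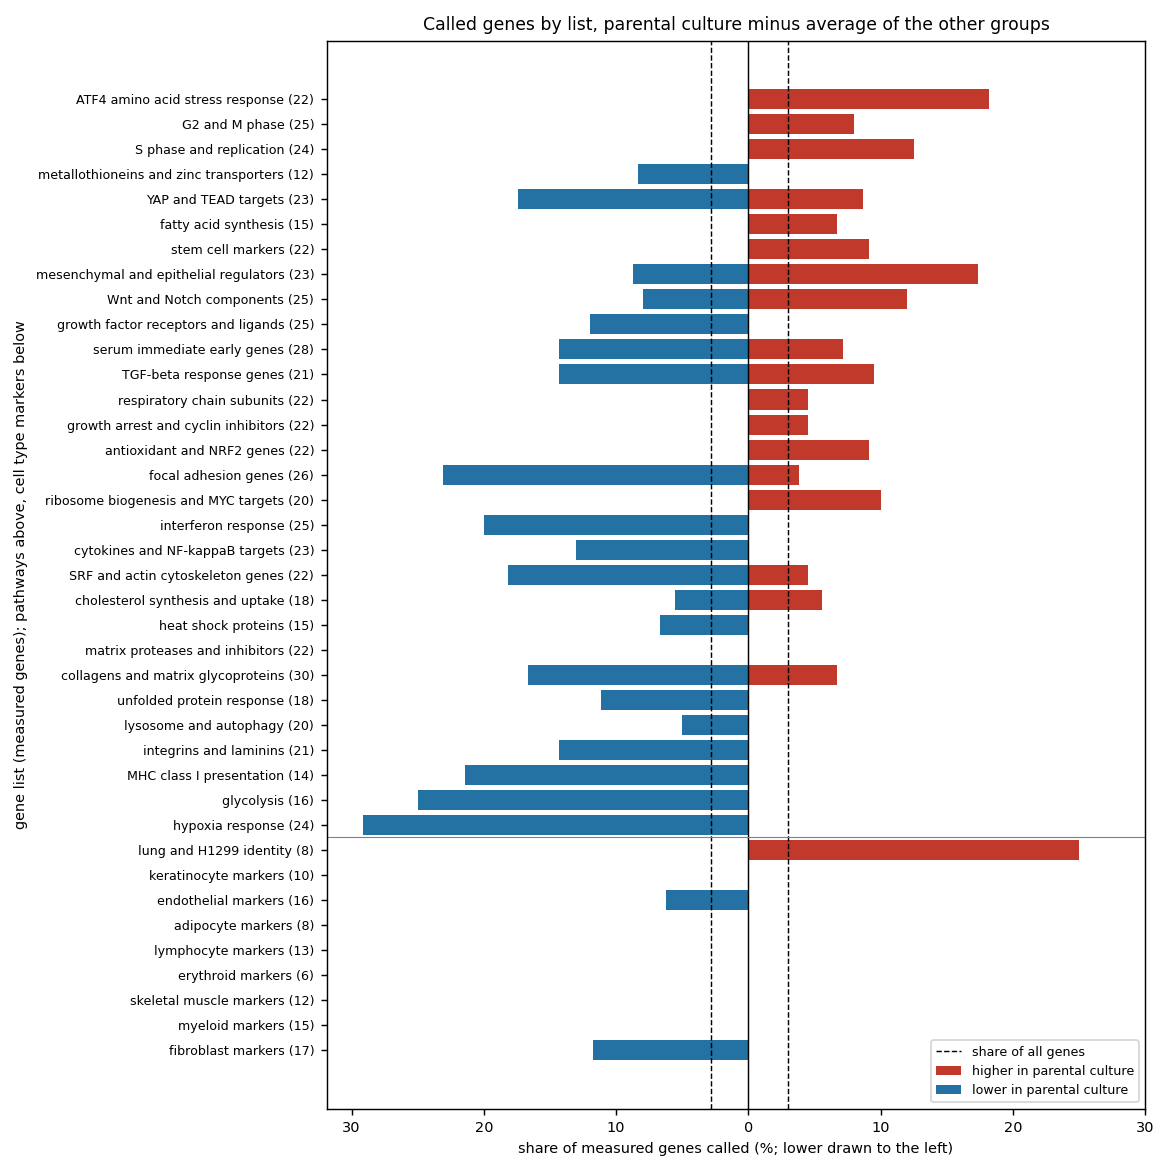
Share of the measured genes of each list called higher (red, right) or lower (blue, left, drawn to the left of 0) in parental culture, in percent, with the number of measured genes in brackets and dashed lines at the share of all genes called in that direction (3.00% higher and 2.86% lower). Pathway lists stand above the horizontal line, ordered by median difference from the highest at the top, and cell type markers below it.

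Serum immediate early genes had no common direction, with 2 of 28 higher and 4 lower (median -0.01), and 4 higher and 3 lower without parental culture replicate 1. Over all genes 3.00% were higher and 2.86% lower. FOSL1, an AP-1 subunit, read 11.18, 11.49 and 11.72 in parental culture, against 9.98 to 10.74 elsewhere (1.01, SE 0.16), while KLF10, a zinc finger repressor, fell by 1.11 (SE 0.20) and JUNB, another AP-1 subunit, by 0.87 (SE 0.15). Of 23 mesenchymal and epithelial genes 4 rose and 2 fell, and 1 rose and 1 fell without parental culture replicate 3. The simple epithelial keratins KRT8 and KRT18 were among those that rose. ZEB2 rose as well, but it lost its call in 19 of 26 alternatives, 11 of them fits without 1 array. KRT8 read 8.60, 9.17 and 9.11 in parental culture, against 7.35 to 7.68 in spheroid culture, 6.66 to 7.57 in parental xenografts and 7.19 to 7.70 in spheroid xenografts (1.56, SE 0.20). KRT18 differed by 1.28 (SE 0.28), with replicate 1 of parental culture at 11.77 and replicates 2 and 3 at 12.91 and 13.01, against 10.28 to 11.77 elsewhere.

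Called genes of the interferon, MHC class I and cytokine lists were lower, against 2.86% lower over all genes. Of 25 interferon response genes 0 rose and 5 fell, with BST2, which tethers budding virus, at 6.49, 6.52 and 6.51 in parental culture, against 8.64, 8.86 and 8.95 in spheroid culture, 7.49 and 7.83 in 2 parental xenografts and 8.29, 8.51 and 8.51 in spheroid xenografts (-1.62, SE 0.29). The third parental xenograft lay below all parental culture values of BST2, so these groups overlapped. Without parental culture replicate 1, 1 interferon gene rose and 4 fell, and without replicate 3, 3 fell. Of 14 MHC class I genes 0 rose and 3 fell, among them the peptide transporter TAP1 (-0.70, SE 0.12). Without parental culture replicate 1, 1 rose and 1 fell, without replicate 2, 6 fell, and without replicate 3, 1 fell. Of 23 cytokine and NF-kappaB targets 0 rose and 3 fell: CXCL1, a chemokine, by 2.27 (SE 0.41), the adhesion receptor ICAM1 by 1.12 and the NF-kappaB inhibitor NFKBIA by 1.08. Without parental culture replicate 3, 2 fell and ICAM1 was not called (adjusted p = 0.0835), and without replicate 2, 1 rose. After removal of the _x_at and _s_at probe sets another stood for NFKBIA and gave -0.07 (adjusted p = 0.943). Of 25 Wnt and Notch components 3 rose and 2 fell, against 3.00% higher and 2.86% lower over all genes. Without parental culture replicate 2, 1 rose and 3 fell. JAG1, a Notch ligand, fell by 2.51 (SE 0.32), at 8.90, 10.10 and 9.09 in parental culture against 10.48, 11.21 and 11.60 for spheroid culture, 12.33, 12.84 and 12.63 for parental xenografts and 11.20, 11.92 and 12.60 for spheroid xenografts. Among 22 stem cell markers 2 rose and 0 fell, against 3.00% higher over all genes, and 1 rose without parental culture replicate 2 or 3. The drug pump ABCB1 was higher by 1.30 (SE 0.21), but its levels lay below the lower quartile on all 9 other arrays, so the size of this difference is uncertain. CD44, a hyaluronan receptor, was higher by 1.03 (SE 0.27, adjusted p = 0.0433), but it averaged 11.06 in parental culture and 11.01 in parental xenografts, against 9.27 in spheroid culture and 9.79 in spheroid xenografts. CD44 lost its call in 18 of 27 alternatives, 10 of them fits without 1 array (adjusted p up to 0.301).

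Some called genes owed their average to part of the other groups. HBE1, an embryonic globin, had the largest average difference of these, -4.33 (SE 0.31): it read 5.10 to 5.35 in parental culture and 4.72 to 5.96 in spheroid culture, against 11.06 to 12.66 in parental xenografts and 11.22 to 11.80 in spheroid xenografts. A second HBE1 probe set differed by 0.03, so the 2 disagree. MGP, an inhibitor of calcification, read 6.11, 4.91 and 5.13 in parental culture, against 6.36, 5.81 and 5.08 for spheroid culture, 13.78, 12.03 and 10.43 for parental xenografts and 7.08, 8.19 and 6.07 for spheroid xenografts (-2.93, SE 0.60). Another MGP probe set, used after removal of the _x_at and _s_at probe sets, gave -0.29 (adjusted p = 0.857), and MGP was not called without parental culture replicate 3 (0.0819). EDIL3, a secreted integrin ligand, and S100A4, a calcium-binding protein of motile cells, likewise stood at 5.68 to 6.97 and 6.35 to 7.20 in parental culture, with spheroid culture at 4.92 to 7.23 and 6.56 to 7.04 and the xenografts at 8.05 to 11.44 and 8.59 to 10.80. In HBE1, MGP, EDIL3 and S100A4 parental culture overlapped with spheroid culture. EDIL3 lost its call in 6 of the 12 fits without 1 array (adjusted p up to 0.166).

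In other genes parental culture stood level with parental xenografts. PLD5, a phospholipase D family member, read 6.75, 5.49 and 4.98 in parental culture, against 8.23, 9.88 and 9.91 for spheroid culture, 5.63, 5.53 and 5.71 for parental xenografts and 8.11, 8.94 and 9.32 for spheroid xenografts (-2.18, SE 0.41). Another PLD5 probe set, which averaged 4.17 in parental culture, differed by -0.06. CAP2, an actin-binding protein, read 9.15, 9.99 and 9.85 in parental culture, against 8.61, 6.85 and 6.87 for spheroid culture, 10.53, 10.06 and 9.44 for parental xenografts and 5.87, 6.48 and 7.06 for spheroid xenografts (1.69, SE 0.38). In both genes parental culture overlapped with parental xenografts and not with the spheroid groups. PLD5 was not called without parental culture replicate 3 (adjusted p = 0.0698), nor CAP2 without replicate 2 (0.0518) or 3 (0.114). PERP, a desmosomal protein, averaged 10.83 in parental culture, against 9.65 for spheroid culture, 8.76 for parental xenografts and 6.90 for spheroid xenografts (2.39, SE 0.36). No pair of these other groups passed the test of its difference: adjusted p was 0.481 for parental xenografts with spheroid culture, 0.147 for the xenografts with each other and 0.0595 for spheroid xenografts with spheroid culture. Another PERP probe set, used after removal of the _x_at and _s_at probe sets, gave 0.07 (adjusted p = 0.953). In 3 genes, KCNJ2, PCDH7 and PRRX1, parental culture lay above 1 other group and below another (0.0152% of all genes).

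**Figure D5:**
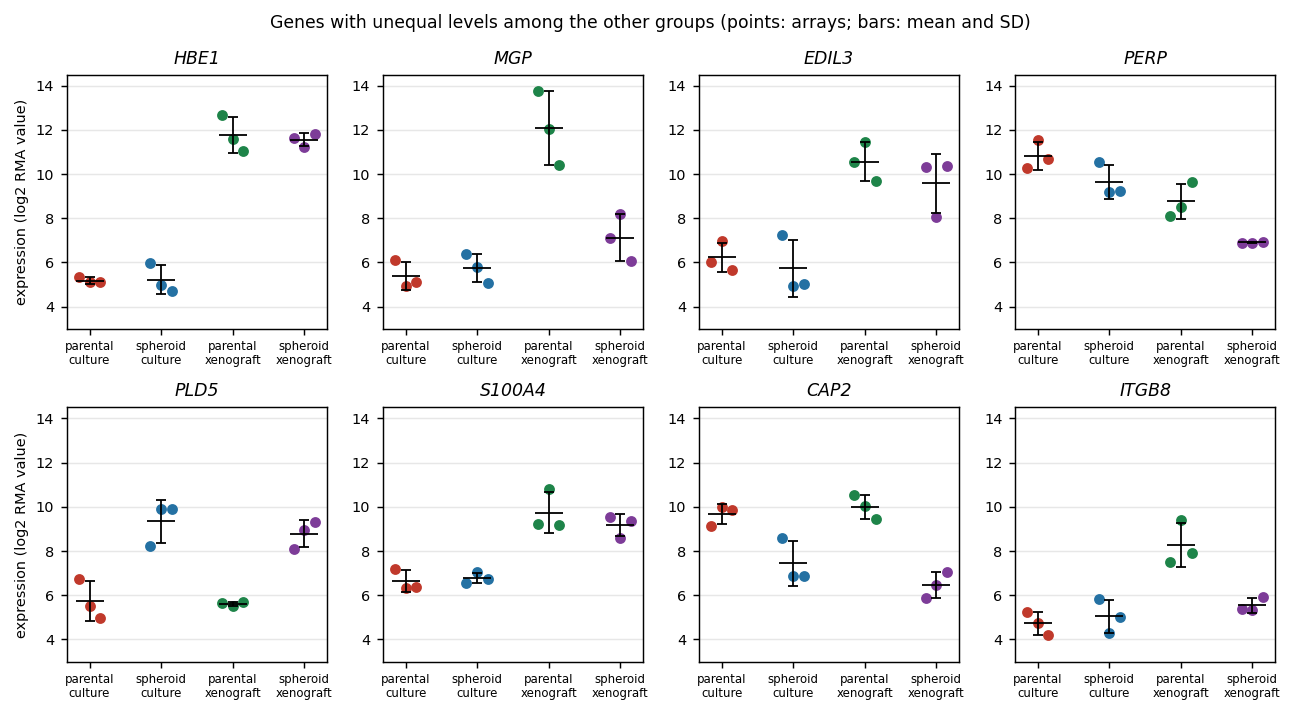
Log2 expression of the 8 called genes of largest average difference that also passed the F test among the other groups, with 1 point per array and bars for the mean and SD of each group of 3. Parental culture lies level with spheroid culture in HBE1, MGP, EDIL3 and S100A4, and level with parental xenografts in PLD5 and CAP2.

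Few markers of other cells that a tumour can hold were called. The array carries human probe sets, and the host of a xenograft need not be human, so few calls do not show that such cells were few. Of 17 fibroblast markers 0 rose and 2 fell in parental culture, FAP (-1.21, SE 0.18) and COL3A1 (-1.18, SE 0.31), against 2.86% lower over all genes. COL3A1, a fibrillar collagen, read 5.14 to 5.28 in parental culture, against 5.19 to 5.43 in spheroid culture, 6.28 to 7.88 in parental xenografts and 6.14 to 7.27 in spheroid xenografts. The mean level of the list was 5.85 to 6.14 in parental culture, against 6.12 to 6.27 in spheroid culture, 6.32 to 6.76 in parental xenografts and 6.14 to 6.27 in spheroid xenografts, and LUM lay below the lower quartile on all arrays. Of 16 endothelial markers 1 fell, ENG (-0.71, SE 0.13), which was lower than spheroid culture by 0.70 as well, while KDR and TIE1 lay below the lower quartile on all arrays. No marker of myeloid cells, lymphocytes, skeletal muscle, adipocytes, erythroid cells or keratinocytes was called by limma. At an unadjusted p under 0.05, 1 of 15 myeloid and 1 of 8 adipocyte markers were lower and 2 of 10 keratinocyte markers higher, and 0 of the 13 lymphocyte, 12 skeletal muscle and 6 erythroid markers passed. The share of all genes passing that threshold was not counted, so these counts stand without a background. In bulk samples, fewer cells of a type and less RNA per cell cannot be told apart.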

How the data were processed

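The 12 arrays were read from the deposited table of log2 expression values, which the authors made with RMA (affy), per the submitters' processing notes. RMA corrects background, quantile-normalises the arrays and summarises each probe set. The sources used here give no versions for them. Probe sets were named from the platform annotation, updated by gene number with the GRCh38.p14 gene table: of 54675 probe sets, 41091 had 1 gene symbol, 1801 several, 11721 none and 62 were controls. The probe set with the highest mean over all arrays stood for each of 19775 genes, with no filter on low values.

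limma 3.58.1 in R 4.3.3 fitted 1 mean per group, with 8 residual degrees of freedom, and eBayes gave the contrast of parental culture with the average of the other 3 group means. P-values were adjusted by Benjamini-Hochberg over all genes, with a threshold of 0.05. A gene differed from each other group where the largest of its 3 p-values, with differences of 1 sign, passed after adjustment. The scripts were tested on simulated data. Genes named by rule were the 12 of largest average difference in each direction among those that differed from every group without overlap, the 8 most even of these with a difference of at least 1, the 8 of largest average difference that also passed the F test, genes on opposite sides, up to 3 called members of each pathway list (or that of lowest p) and 2 of each cell type list. Further list members named in the text were added to show a list's range after their values were seen and were not followed through the alternatives singly. Members and lists were chosen with earlier results of these data known. The positional windows were added after the values had been seen, and the gene table gave only gene order. The alternatives comprised other normalisations, probe set rules, array weights, covariates, left-out arrays and left-out groups. Precision is set by the 3 arrays of each group, and the average difference had a median SE of 0.165.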

Additional observations from a re-analysis of the deposited data

Results flagged for a closer look

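In 3 genes parental culture lay above 1 other group and below another, each difference passing its test. KCNJ2, a potassium channel, read 6.69, 6.10 and 5.84 in parental culture, against 4.97, 4.99 and 4.56 for spheroid culture, 9.55, 9.33 and 7.88 for parental xenografts and 5.11, 4.67 and 4.64 for spheroid xenografts. Its average difference was thus 0.02, while parental xenografts stood 4.11 above spheroid xenografts (adjusted p of limma's F test among the other groups 7.68e-04). PCDH7, a protocadherin, differed by 1.81 from spheroid culture, -1.78 from parental xenografts and 0.91 from spheroid xenografts, a gap of 3.59 between other groups (adjusted p 0.0046), and 1 of its 5 probe sets had the sign of its average. PRRX1, a mesenchymal homeobox factor, differed by 0.18, -1.35 and 1.79 in the same order, a gap of 3.14 (adjusted p 0.00227). The share of such genes was 0.0152% of all genes.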

How the results depend on the processing

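Of 102 named called genes, 38 were called under every alternative in which they were tested. Some genes were absent from alternatives that dropped probe sets or dim genes, as TUBB2B, which was tested in 25 of 27. Whichever array was left out, 64 were called, and no named called gene changed sign. The balance of called genes turned without parental culture replicate 2. It turned in other alternatives too, such as without spheroid culture replicate 1 (602 higher and 669 lower), with brighter genes alone (524 and 586) and without the spheroid culture group (459 and 549). The causes were not tested. In each list below the counts stand for genes called on average, against each other group, by the F test and on opposite sides, where they moved. Quantile normalisation gave 1901 (1093 higher and 808 lower), 242, 240 and 5. Cyclic loess gave 1758 (1090 and 668), 184 against each group and 5 on opposite sides. Median centring gave 511 higher and 328 lower, 36 against each group, 69 by F and 1 on opposite sides. Leaving out probe sets ending in _x_at or _s_at gave 71 against each group and 80 by F, and brighter genes alone gave 5 on opposite sides. Array weights gave 3031 (1333 and 1698), 558, 2294 and 25, with 211 called list members, and the interquartile range as covariate 2791 (1247 and 1544), 431, 773 and 16, with 175. Parental culture replicate 3 alone, assumed to vary like the arrays of the other groups, gave 507, 70, 371 and 0, with 50 list members and 83 genes of the chromosome 19 run. An average without spheroid culture gave 74 by F and 0 on opposite sides, and one without parental xenografts 180 against each group, 13 by F and 0 on opposite sides. One without spheroid xenografts gave 329 (188 and 141), 2, 48 and 1, with 30 list members and 76 genes of the run. The other 9 arrays as 1 group gave 57 list members. Leaving out 1 array gave 509 to 1910 genes on average, 13 to 192 against each group, 9 to 401 by F, 0 to 8 on opposite sides, 45 to 126 list members and 87 to 147 genes of the run. The replicate numbers did not pair all samples. Between parental culture and the other groups the deviations of same-numbered samples correlated at 0.19 to 0.33 for number 1 and at -0.56 to -0.24 for numbers 2 and 3, whereas among the other 3 groups they correlated at 0.08 to 0.48. With the replicate number as a block, 1125 genes were called on average, 83 against each group and 82 by F. The alternatives for the chromosome 19 run were chosen after seeing the data, and its median stayed between 0.58 and 0.75 in them.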
